A study of Mus musculus with 8 samples.

Results

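The simple epithelial keratins Krt7, Krt8, Krt18, Krt19, Krt20 and Krt23 were followed in sorted jejunal epithelial cells of conventionalized and germ-free mice. The 6 genes were taken by name from the 48440 genes of the expression table, all 6 were found and all 6 passed the expression minimum. The 8 donors of RNA were females of the strain Sox9-EGFP, bred on C57BL/6J, whose cells make a green fluorescent protein wherever the Sox9 transgene is active. The 4 conventionalized mice were raised germ-free, were moved at 8 to 10 weeks of age to a conventional animal house, were gavaged there with fecal slurry from conventionally raised Sox9-EGFP mice and were killed 2 weeks later. The 4 germ-free mice were their littermates, kept germ-free, so that each littermate pair, A to D, gave 1 mouse to each group and exposure to microbes went together with the change of housing. All libraries came from cells with low reporter fluorescence, a fraction enriched for intestinal stem cells that is not a pure cell type, and staining with Annexin-V, Sytox-blue and antibodies to CD31 and CD45 had been used to gate out dying cells, endothelium and leukocytes. In such bulk samples, fewer cells of a type and less RNA per cell cannot be told apart.

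Keratins are the intermediate filament proteins of epithelia. A type I keratin must pair with a type II keratin to form the filament, and unpaired keratin is degraded. Krt7 and Krt8 are type II, and Krt18, Krt19, Krt20 and Krt23 are type I. Krt8, Krt18 and Krt19 are made along the whole crypt-villus axis of the intestine, whereas Krt20 is a marker of differentiated cells of the villus and of the surface. Krt7 is better known from ducts and glandular epithelia.

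Krt20 fell in conventionalized mice, every conventionalized library had less Krt7 than any germ-free library, and Krt8, Krt18 and Krt19 had overlapping levels in both groups. How many of all tested genes had groups without overlap was not counted, so no weight is put on a lack of overlap. Krt20 was 3.53-fold higher in germ-free mice and was the only member called by limma at an adjusted p under 0.05 over all tested genes. Krt7 was 2.82-fold higher in germ-free mice and was called with the littermate pair as a block but not without it. Of the 6 members, 1 was called lower and 0 higher, where 4.92% of the 10053 tested genes were called, 3.76% lower and 1.16% higher. With the block 2 members were called lower and 0 higher, where 13.1% of genes were called, 5.02% lower and 8.08% higher.

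The libraries differed in depth and likeness. Their totals, on an approximate read scale, ran from 9363889 to 19139685 in conventionalized and from 6209041 to 11648529 in germ-free libraries. The lowest was that of the pair C germ-free library and the highest that of the pair D conventionalized library. Median correlation with the other libraries of the same group was 0.789 for the pair C germ-free library and 0.87 to 0.944 for the other 7. The conventionalized library of pair A had a summed level of 53557 CPM for 13 goblet cell genes, against 1809 to 6597 CPM in the other conventionalized libraries. The epithelial adhesion gene Epcam was at 1636 to 3018 CPM in conventionalized mice and 933 to 1771 CPM in germ-free libraries, and Sox9 was at 252 to 517 CPM in conventionalized and 137 to 337 CPM in germ-free libraries. Values are CPM, that is, signal scaled to a fixed library total and then adjusted between libraries by the trimmed mean of M values (TMM). Levels are given as mean ± SD with n = 4 mice per group, and fold changes on the log2 scale, conventionalized over germ-free, beside the standard error (SE). Over all tested genes the median log2 fold change was 0.32 with this scaling and 0.09 with library size alone, so a value near 0.32 lies at the centre of all genes.

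The promoters of the 2 members with the largest differences, Krt20 and Krt7, are shown first, with that of Krt18 for comparison. The bases before the RefSeq start sites (GRCm38.p6) were available for 5 of the 6 members. Capitals mark matches, on either strand, to TATAAA (the core of the TATA box), TTTAT (a core of Cdx homeodomain sites) and CACCC (a core of Klf sites). The sequences run 5′ to 3′ on the strand of the gene.
Krt20, chr11:99438154-99438403, minus strand: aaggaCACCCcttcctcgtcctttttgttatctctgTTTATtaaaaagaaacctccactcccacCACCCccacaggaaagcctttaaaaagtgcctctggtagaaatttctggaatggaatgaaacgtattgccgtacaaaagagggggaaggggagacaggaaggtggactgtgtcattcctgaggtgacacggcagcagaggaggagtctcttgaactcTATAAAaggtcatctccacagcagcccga
Krt7, chr15:101412153-101412402, plus strand: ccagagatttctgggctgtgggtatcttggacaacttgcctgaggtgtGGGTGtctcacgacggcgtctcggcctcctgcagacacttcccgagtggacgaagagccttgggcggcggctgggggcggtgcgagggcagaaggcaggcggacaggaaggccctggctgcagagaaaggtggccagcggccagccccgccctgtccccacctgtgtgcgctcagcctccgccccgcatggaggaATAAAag
Krt18, chr15:102027966-102028179, plus strand: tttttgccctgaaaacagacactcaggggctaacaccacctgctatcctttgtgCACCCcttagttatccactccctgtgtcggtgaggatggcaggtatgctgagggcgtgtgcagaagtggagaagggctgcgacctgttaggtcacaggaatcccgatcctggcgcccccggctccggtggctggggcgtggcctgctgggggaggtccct
The Krt20 and Krt7 stretches are the whole 250 bases before the RefSeq start, and the Krt18 stretch is the first 214 of them, which end before the GENCODE gene start. The Krt7 stretch lies inside the GENCODE gene, whose first transcripts start further upstream, and includes part of an exon of a non-coding one, while the principal GENCODE transcript starts at the last base shown. Krt20 had a TATAAA match that began 29 bases before the start, and the TTTAT match at 28 bases lies inside it on the other strand. A further TTTAT match in Krt20 began at 214 bases before the start and its CACCC matches at 245 and 186 bases. Krt7 had 1 TTTAT match, 7 bases before the start, and 1 CACCC match, and had no TATAAA match. In the 250-base windows of Krt8 and Krt18 there was no TATAAA or TTTAT match, and there were 2 and 1 CACCC matches. Krt23 had 1 TTTAT match and no other. Among 32851 promoter windows of the same length, 12.4% held TATAAA, 37.3% TTTAT and 52.0% CACCC. These matches describe letters and not bound sites.

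Krt8, the main type II keratin of simple epithelia, was the most abundant member per kb of transcript, and ranked 7 by mean level among all genes of the table. Krt8 (ENSMUSG00000049382.9, GRCm38 chromosome 15, 101996698 to 102004482, minus strand, 9 exons) was at 8022, 3264, 3169 and 5319 CPM in conventionalized mice A to D, against 4862, 4487, 3440 and 3815 CPM in the germ-free mice. The conventionalized values enclosed all the germ-free values. The log2 fold change was 0.16 (SE 0.44, 95% interval -0.79 to 1.10, adjusted p = 0.826), and conventionalized mice were higher in 2 of 4 pairs. This interval covers 0.579 to 2.14 times the germ-free level. The processed pseudogene Krt8-ps on chromosome 7 held 1.28 to 1.58% as much signal as Krt8 in each library.

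Krt18, the usual type I partner of Krt8, lies 23.7 kb from Krt8 on chromosome 15, which is unusual for a type I gene since the others measured here lie on chromosome 11. Krt18 (ENSMUSG00000023043.6, 102028180 to 102032027, plus strand, 7 exons) was at 1871, 1349, 1586 and 2614 CPM in conventionalized mice and 2225, 1814, 1238 and 1440 CPM in germ-free mice. The groups overlapped over most of their range, with pairs A and B lower and pairs C and D higher in conventionalized mice. The log2 fold change was 0.14 (SE 0.39, 95% interval -0.70 to 0.97, adjusted p = 0.83).

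Krt19 is a type I keratin with almost no tail domain. Krt19 (ENSMUSG00000020911.14, chromosome 11, 100140810 to 100148665, minus strand) was at 5842, 1918, 2127 and 3422 CPM in conventionalized mice and 2934, 2793, 2043 and 2384 CPM in germ-free mice. The conventionalized library of pair A was the highest of all 8, and conventionalized mice were higher in 3 of 4 pairs. The log2 fold change was 0.26 (SE 0.44, 95% interval -0.69 to 1.21, adjusted p = 0.709). The high Krt8 and Krt19 values of the pair A conventionalized library stood beside its high goblet gene signal, whose part was not tested. Without that library the log2 fold changes of Krt8 and Krt19 were -0.14 and -0.092. With library size scaling those of Krt8 and Krt18 were -0.079 and -0.10 and that of Krt19 0.02, so no direction is given for these 3 genes.

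Krt20 showed the largest difference of the 6 members. Krt20 (ENSMUSG00000035775.2, chromosome 11, 99428403 to 99438150, minus strand, 8 exons) was at 797, 216, 414 and 475 CPM in conventionalized mice A to D, against 2160, 1161, 1998 and 1048 CPM in the germ-free mice. The groups did not overlap, since the highest conventionalized library, that of pair A, was below the lowest germ-free library, that of pair D. The level was 475 ± 241 CPM in conventionalized mice and 1592 ± 568 CPM in germ-free mice. Krt20 fell by 1.82 on the log2 scale in conventionalized mice (SE 0.44, 95% interval -2.77 to -0.86, limma adjusted p = 0.0317). Within pairs A, B, C and D the log2 difference was -1.44, -2.42, -2.27 and -1.14. The call was lost without the pair B conventionalized library (adjusted p = 0.115), C (0.0952) or D (0.0751) or the pair A germ-free library (0.0972), with log2 fold changes of -2.15 to -1.49 when any 1 library was left out. Without the 2 libraries that stood apart, conventionalized A and germ-free C, the log2 fold change was -1.98 (adjusted p = 2.31e-06). These 2 were picked after the data had been seen, and in that fit limma took the spread almost wholly from all genes together. Its adjusted p is therefore not comparable with 0.0317.

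Krt7 had the second largest difference. Krt7 (ENSMUSG00000023039.16, chromosome 15, 101411043 to 101430313, plus strand) was at 1213, 574, 1142 and 1510 CPM in conventionalized mice and 3965, 2546, 3570 and 2122 CPM in germ-free mice. As for Krt20, the groups did not overlap and all 4 pairs were lower in the conventionalized mouse, with pair D showing the smallest difference of both genes. The means were 1110 ± 391 CPM in conventionalized mice and 3051 ± 861 CPM in germ-free mice. The log2 fold change was -1.5 (SE 0.42, 95% interval -2.40 to -0.59, adjusted p = 0.058), and the adjusted p was 0.0335 with the littermate pair as a block. It was 0.00725 without the pair C germ-free library, but 0.0571 to 0.161 without any other 1 library, where Krt7 was not called. The adjusted p of Krt7 was 0.00276 without both libraries that stood apart, which were chosen after the data had been seen. Without germ-free C, alone or with conventionalized A, limma took more of the spread from all genes together than with all 8 libraries. Neither 0.00725 nor 0.00276 is therefore comparable with 0.058. In the fit without both libraries Krt7 and Krt20 were the 2 members called, both lower, where 6.68% of genes were called, 4.24% lower and 2.45% higher. The hair keratin gene Krt87 lies 724 bases beyond the end of Krt7 on the other strand and was at 6.42 to 9.01 CPM in conventionalized mice and 7.62 to 24.9 CPM in germ-free libraries, and did not pass the expression minimum.

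Krt23 was the least abundant member per kb of transcript. Krt23 (ENSMUSG00000006777.7, chromosome 11, 99477974 to 99493137, minus strand, 8 exons) is the neighbour of Krt20, 39.8 kb away. It was at 30.8, 50.4, 48.2 and 67.4 CPM in conventionalized mice and 48.0, 41.8, 8.38 and 36.8 CPM in germ-free mice. The groups overlapped, and the pair C germ-free library was the lowest of all 8 and the only one under 10 CPM. The log2 fold change was 0.74 (SE 0.47, 95% interval -0.28 to 1.76, adjusted p = 0.296), and 0.17 without that library.

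**Figure D1:**
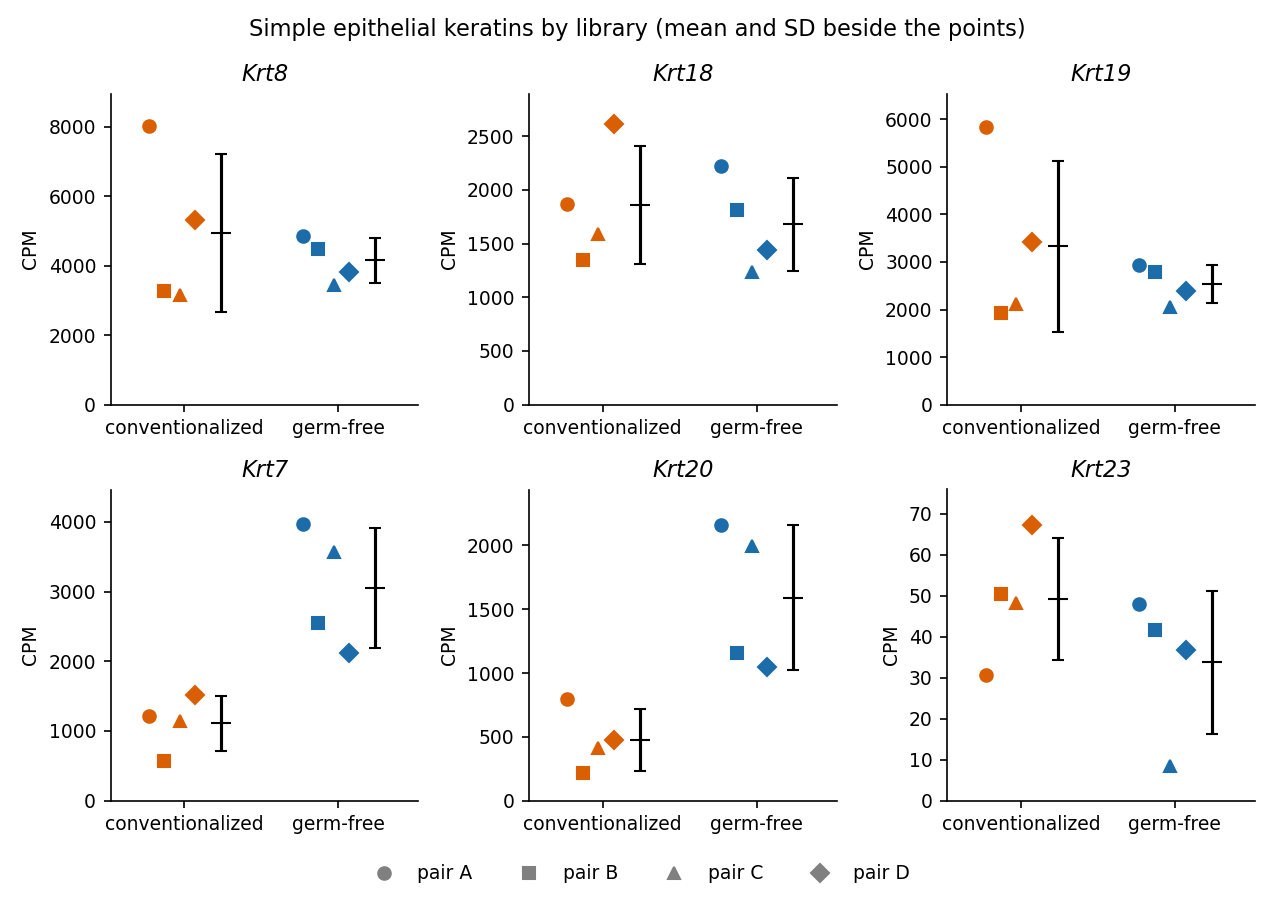
Level of each keratin in CPM (y axis, from 0) in the 4 conventionalized and 4 germ-free libraries, with marker shape for the littermate pair and mean ± SD beside the points. Krt7 and Krt20 show no overlap between the groups, with Krt20 at 216 to 797 CPM in conventionalized mice and 1048 to 2160 CPM in germ-free mice, while the other 4 members overlap.

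**Figure D2:**
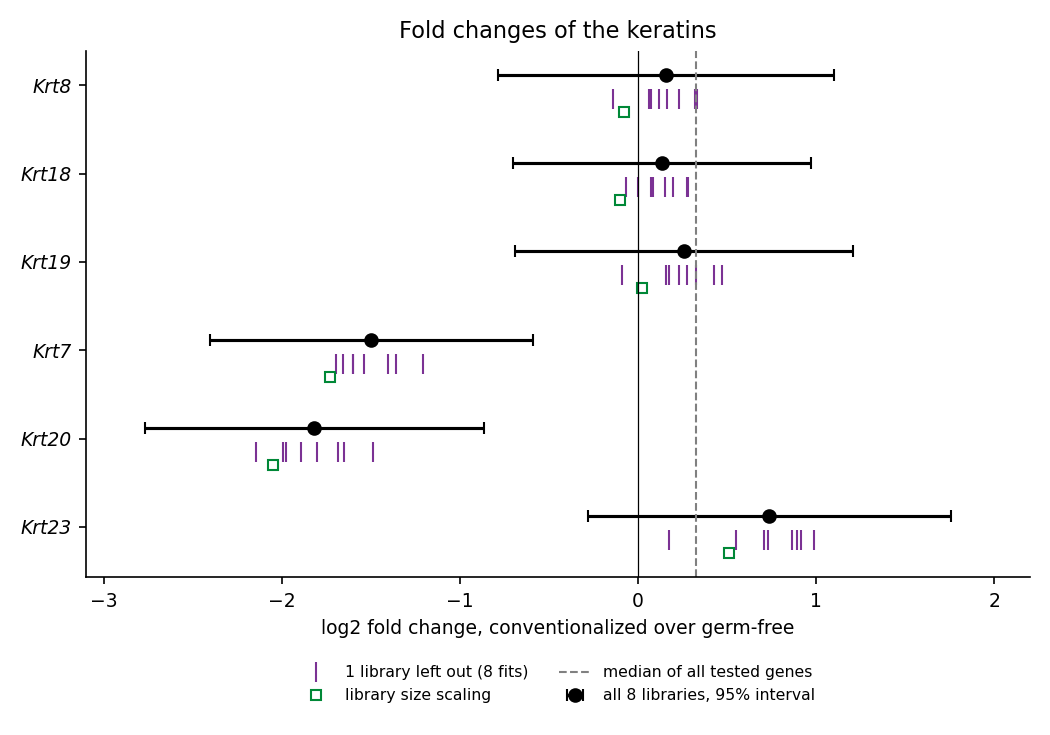
Log2 fold change of conventionalized over germ-free for each keratin (x axis) with its 95% interval from limma, the 8 values with 1 library left out and the value with library size scaling. Krt7 and Krt20 stay below 0 in each of these fits, Krt8, Krt18 and Krt19 lie on both sides of 0, and the dashed line marks the median of all tested genes at 0.32.

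Ratios between members within a library do not depend on how libraries are scaled, and are given here without correction for length. Krt20 over Krt8 was 0.0993, 0.0662, 0.131 and 0.0894 in conventionalized mice A to D, against 0.444, 0.259, 0.581 and 0.275 in germ-free mice. On the log2 scale the difference was -1.97, that is, a ratio 3.93-fold higher in germ-free mice. The ratio to Krt18 differed by -1.95 and that to Krt19 by -2.08. For each of the 3 ratios the groups did not overlap and all 4 pairs had the lower value in the conventionalized mouse. The exact two-sided permutation p over 70 assignments was 0.0286 for each ratio, the smallest that 4 against 4 libraries can give, and 0.0286 after adjustment over the 3 ratios. Flipping the sign within the 4 littermate pairs gave an exact p of 0.125, which is the smallest that 4 pairs can give. Within pairs A to D the log2 ratio of Krt20 to Krt8 differed by -2.16, -1.97, -2.15 and -1.62, a narrower range than for Krt20 itself. The within-pair differences of Krt20 over Krt19 also had a narrower range, -2.43 to -1.66. Those of Krt20 over Krt18 had a wider range than Krt20 itself, from -2.63 in pair C to -1.19 in pair A.

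Krt7 was set against the other members in the same way. Krt7 over Krt8 was 0.151, 0.176, 0.361 and 0.284 in conventionalized and 0.815, 0.567, 1.04 and 0.556 in germ-free mice. That ratio was examined after the levels had been seen and was given no test. Krt7 over Krt20 was 1.52 to 3.18 in conventionalized and 1.79 to 2.19 in germ-free mice, so the groups overlapped. Krt19 over Krt8 was the steadiest ratio of those examined, at 0.588 to 0.728 in conventionalized and 0.594 to 0.625 in germ-free mice. Krt18 over Krt8 was 0.233 in the pair A conventionalized library, against 0.413 to 0.5 in the other conventionalized libraries and 0.36 to 0.458 in germ-free mice.

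**Figure D3:**
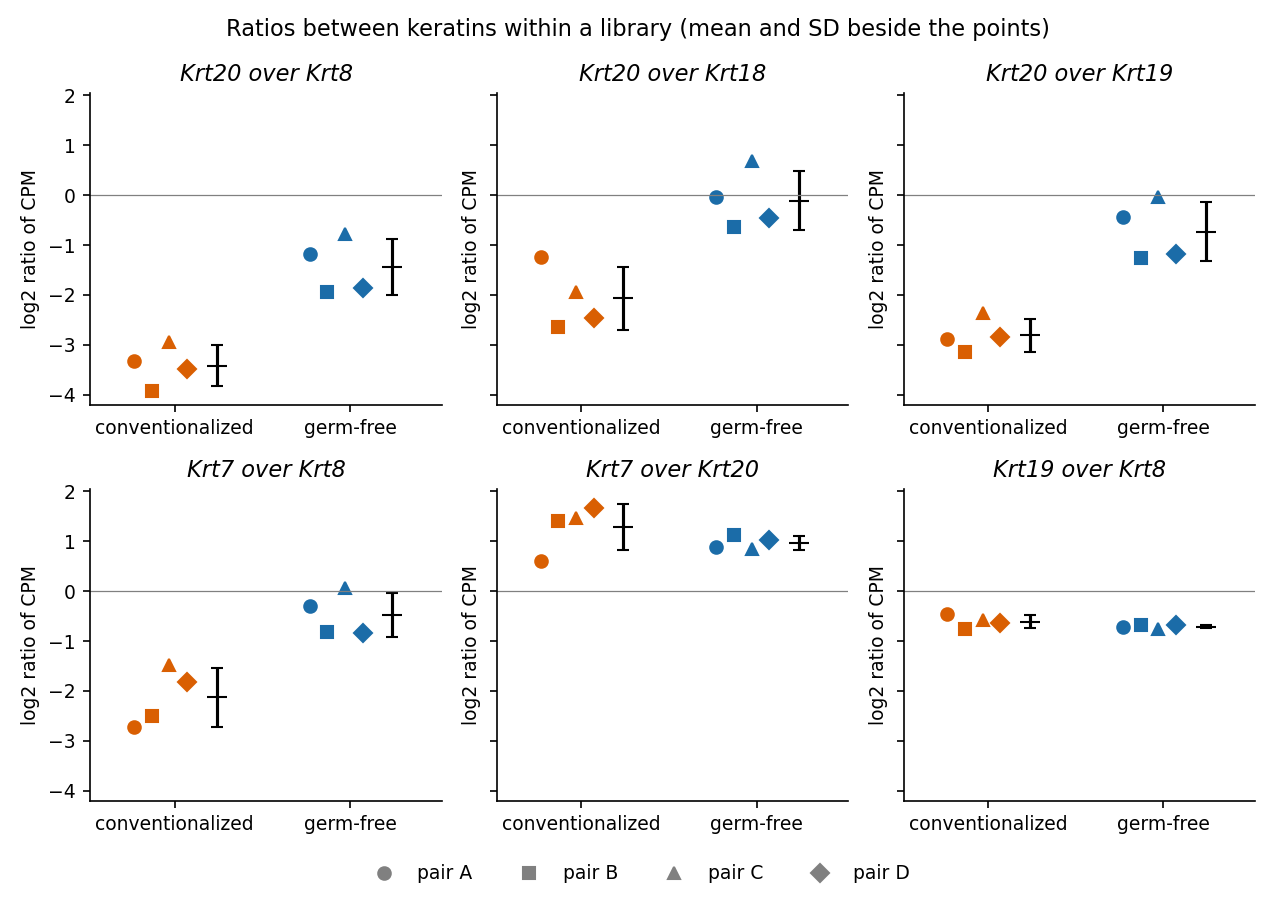
Log2 ratio of CPM between pairs of keratins within each library (y axis), for 4 conventionalized and 4 germ-free libraries with mean ± SD beside the points. Krt20 over Krt8, Krt18 or Krt19 and Krt7 over Krt8 are lower in every conventionalized library than in any germ-free library, whereas Krt7 over Krt20 and Krt19 over Krt8 overlap.

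Levels of different genes were set side by side per length, as CPM per kb of the principal transcript within the span of the RefSeq gene. The order in conventionalized mice was Krt8 (2739 ± 1263 CPM per kb), Krt19 (2408 ± 1305), Krt18 (1325 ± 392), Krt7 (700 ± 247), Krt20 (247 ± 125) and Krt23 (31.8 ± 9.66). In germ-free mice it was Krt8 (2300 ± 356), Krt7 (1924 ± 543), Krt19 (1837 ± 293), Krt18 (1199 ± 311), Krt20 (826 ± 295) and Krt23 (21.8 ± 11.3). In conventionalized mice the ranges of neighbours in this order overlapped except between Krt18 and Krt7 and between Krt20 and Krt23. Within every single conventionalized library, however, the order was the same. In germ-free mice the ranges overlapped except between Krt20 and Krt23. Krt8, Krt19 and Krt18 kept their order in every germ-free library. There Krt7 was above Krt8 in pair C and below Krt19 in pairs B and D, and Krt20 was above Krt18 in pair C. The place of Krt7 depended on the annotation, because its GENCODE transcript of 4094 bases has an end that RefSeq does not have. With the full GENCODE length Krt7 was at 271 ± 95.5 CPM per kb in conventionalized and 745 ± 210 CPM per kb in germ-free mice.

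The makeup of the keratin pool per length is given as a description. Krt20 made up 3.24 ± 0.73% of the summed keratin signal per kb in conventionalized and 10.1 ± 2.90% in germ-free mice. Krt7 made up 9.77 ± 3.03% of it in conventionalized and 23.6 ± 4.74% in germ-free mice. The summed level of the 6 members was 1.18 ± 0.48% of the scaled library in conventionalized and 1.30 ± 0.23% in germ-free mice, which overlapped. Type II over type I signal per kb was 0.857 ± 0.014 in conventionalized and 1.09 ± 0.09 in germ-free mice, but 0.754 ± 0.050 in conventionalized and 0.793 ± 0.027 in germ-free mice with the full GENCODE lengths, so the balance of the types rests on the length taken for Krt7. These sums over members were given no test.

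**Figure D4:**
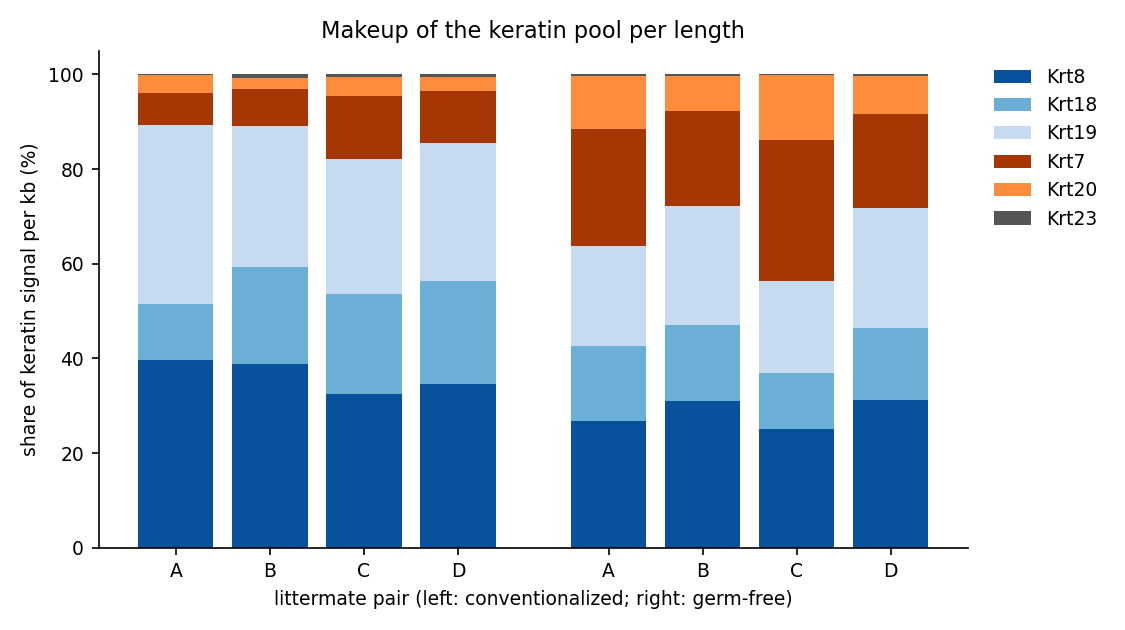
Share of each keratin in the summed keratin signal per kb (y axis, %) in each library, by littermate pair, conventionalized on the left and germ-free on the right, with lengths within the RefSeq span. Krt7 and Krt20 together take a larger part of every germ-free bar than of any conventionalized bar, and Krt23 is barely visible in all 8.

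The remaining keratin genes were almost silent. Of 47 other protein-coding keratin genes in the table, 0 reached 10 CPM in 4 libraries, and 24 stayed under 1 CPM in every library. The highest were Krt87 (up to 24.9 CPM), Krt10 (up to 15.8 CPM) and Krt15 (up to 12.2 CPM). Krt5, the basal keratin of stratified epithelia, was at 0 in all 8 libraries and its partner Krt14 reached 0.819 CPM at most.

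Genes whose profile over the 8 libraries was closest to a member's were found by the root mean square (RMS) difference of mean-centred log2 levels. For Krt20 these were Selenop (RMS 0.227), Serpina1b (0.234) and Insm1 (0.241), where the median of all tested genes was 1.27. Their log2 fold changes were -1.75, -1.76 and -1.80. The RMS difference includes the difference between the groups, so genes with a fold change near that of the member are favoured. Selenop was at 405, 184, 358 and 335 CPM in conventionalized mice and 1411, 771, 1487 and 698 CPM in germ-free mice. Serpina1b was at 87.8, 21.8, 55.5 and 71.8 CPM against 247, 165, 184 and 139 CPM. Insm1 was at 26.5, 13.1, 16.3 and 23.3 CPM in conventionalized mice and 92.9, 51.5, 87.1 and 50.8 CPM in germ-free mice. For Krt7 they were Id2 (0.144), Anxa5 (0.177) and Fxyd3 (0.208), with a median of 1.09. Krt8 was closest to Krt19 (0.0963), Perp and Chmp6, and Krt19 closest to Krt8, Lgals4 and Perp. Krt18 was closest to Ascc1, Fam204a and Borcs7 (0.0709 to 0.0769), and Krt23 to Mnx1, Cd320 and Zfas1 (0.201 to 0.243). The RMS difference between Krt7 and Krt20 was 0.338, and their differences from Krt8 were 0.940 and 1.07.

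Genes of enteroendocrine cells, the hormone cells of the gut, were measured beside the keratins. Of 17 such genes tested, 9 fell, 0 rose and all 17 had negative fold changes, with a median of -1.85, against 0.32 over all tested genes. With the littermate block 12 fell, and without the 2 libraries that stood apart 14 fell. With 1 library left out 5 to 13 fell, with 5 without conventionalized B or without germ-free A. The transcription factor Neurod1 was at 85.9 ± 24.0 CPM in conventionalized mice and 422 ± 142 CPM in germ-free mice (log2 fold change -2.27, adjusted p = 0.00548). The prohormone convertase Pcsk1 and the granule protein Scg3 fell by 2.07 and 1.92. The list summed to 17065, 10660, 22258 and 28046 CPM in conventionalized mice A to D, against 105056, 57697, 61918 and 45299 CPM in germ-free mice. Among germ-free mice this sum, Krt7 and Krt20 had the same order, lowest in pair D, then B, C and A. Among conventionalized mice pair B was lowest for all 3, but pair D was highest for the sum and for Krt7 and pair A for Krt20. The part of enteroendocrine RNA in the levels of Krt7 and Krt20 was not tested.

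**Figure D5:**
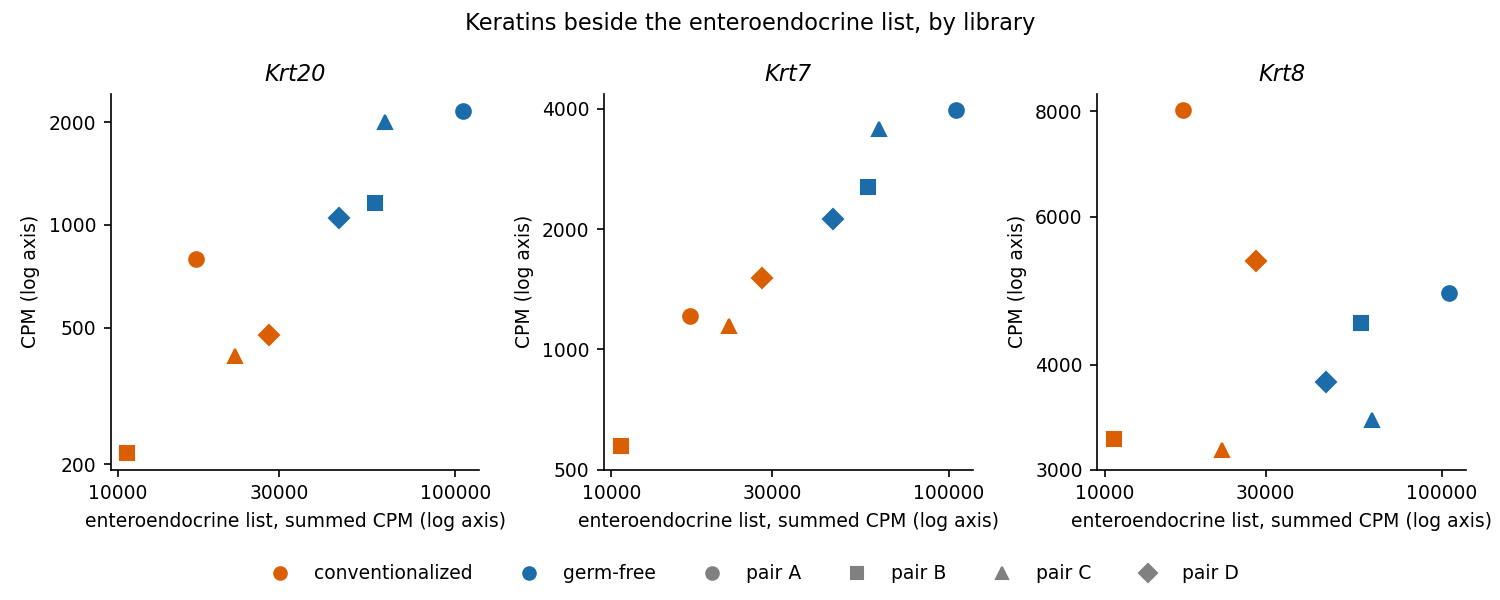
Level of Krt20, Krt7 and Krt8 in CPM (y axes, log scale) against the summed CPM of 17 enteroendocrine genes (x axes, log scale) in each library, coloured by group and shaped by littermate pair. Krt20 and Krt7 are high in the germ-free libraries, where the sum is 45299 to 105056 CPM, and Krt8 is not.

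Genes of enterocyte differentiation went in both directions. Of 20 tested, 3 fell, 0 rose, 13 had positive fold changes and the median was 0.52, and with the littermate block 4 fell and 1 rose. Without the 2 libraries that stood apart the median was -0.16, against 0.15 over all genes tested there, and 2 of 17 fell. With 1 library left out 1 to 3 fell, with 1 without conventionalized B, and only 18 or 19 were tested without any 1 germ-free library. The peptide transporter Slc15a1 was at 8.21 ± 3.03 CPM in conventionalized mice and 45.9 ± 22.8 CPM in germ-free mice (log2 fold change -2.36, adjusted p = 0.00587), and 1 conventionalized library reached 10 CPM. The disaccharidase Sis fell by 1.89 and the drug-metabolizing enzyme Cyp3a11 by 2.26. Slc15a1 and Cyp3a11 met the expression minimum through the germ-free libraries, where they were high. The summed list was 1866 to 5988 CPM in conventionalized mice and 1959 to 4681 CPM in germ-free libraries, highest in pair A of each group, as Krt20 was, and its part in the level of Krt20 was not tested. Genes of the brush border and terminal web, the apical meshwork in which keratin filaments are anchored, had 0 of 16 called by limma, with 1 higher and 3 lower at an unadjusted p under 0.05. With library size scaling 3 were lower, with array quality weights 1 was higher and 1 lower, without the 2 libraries that stood apart 2 were lower, and without germ-free D 1 was lower. The lowest adjusted p were those of Cdhr2 (243 ± 68.4 CPM in conventionalized mice and 507 ± 162 CPM in germ-free mice, adjusted p = 0.0989), Espn (0.0989) and Cdhr5 (0.151).

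Transcription factors of intestinal identity gave 0 calls of 11 by limma, with 4 higher and 1 lower at an unadjusted p under 0.05, 1 higher with array quality weights, and 1 lower with the littermate block, without germ-free B or without the 2 libraries that stood apart. The member lower with the block was Klf4, a factor of terminal epithelial differentiation, at 25.5, 6.82, 13.5 and 29.99 CPM in conventionalized mice and 39.8, 23.8, 65.9 and 44.2 CPM in germ-free mice (log2 fold change -1.29, adjusted p = 0.104, 0.0325 with the block). Gata6, a transcription factor of the intestinal epithelium, had a log2 fold change of 0.70 (adjusted p = 0.131). Cdx1, a homeobox factor that activates KRT20 in human colorectal cancer cells, was looked up after the values of the list had been seen. It was at 614 ± 173 CPM in conventionalized mice and 434 ± 136 CPM in germ-free mice (log2 fold change 0.51, adjusted p = 0.353).

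Desmosomes and plakins, which tie keratin filaments to the cell membrane, had 2 of 15 tested genes lower and 0 higher, with a median log2 fold change of 0.15. Leaving out 1 library gave 0 to 2 lower, with 0 without conventionalized B or C and 1 without conventionalized A or D or germ-free A or D. Both genes that fell encode plakins of the cornified envelope in skin. Envoplakin (Evpl) was at 19.98, 16.9, 16.1 and 18.1 CPM in conventionalized mice and 58.7, 31.3, 87.5 and 43.3 CPM in germ-free mice (log2 fold change -1.51, SE 0.32, adjusted p = 0.0176). Periplakin (Ppl), which pairs with envoplakin, was at 10.95 ± 1.32 CPM in conventionalized mice and 39.5 ± 22.1 CPM in germ-free mice (-1.62, SE 0.39, adjusted p = 0.0317). Neither group overlapped the other for Evpl or for Ppl. The desmosomal cadherin Dsc2 was at 117 ± 34.0 CPM in conventionalized mice and 53.9 ± 17.8 CPM in germ-free mice (log2 fold change 1.13, adjusted p = 0.0705, 0.0175 with the block). Of 12 genes whose products bind, phosphorylate or cleave keratins, limma called 0 (unadjusted p under 0.05 for 1, Pnn, which was higher) and 0 passed with the block or with weights.

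Among the other intermediate filament genes 2 of 6 tested fell and 0 rose, namely the neuronal filament genes Nefm and Ina. With 1 conventionalized library left out 6 were tested, and 1 fell without C or D and 0 without A or B. Without any 1 germ-free library only 4 were tested, since Nefm and Ina then missed the expression minimum. Of those 4, 1 fell without germ-free D and 0 without germ-free A, B or C. With the littermate block 3 fell and 1 rose, and likewise with array quality weights. Nefm was at 6.87 ± 2.04 CPM in conventionalized mice and 21.8 ± 8.46 CPM in germ-free mice (log2 fold change -1.55, adjusted p = 0.0347). Ina was at 3.91 ± 2.63 CPM in conventionalized mice and 16.4 ± 4.91 CPM in germ-free mice (-2.05, adjusted p = 0.0261). Both passed the expression minimum through the germ-free libraries alone. Vim, the filament of mesenchymal cells and leukocytes, was at 23.7, 22.8, 26.04 and 32.02 CPM in conventionalized mice and 136.1, 78.7, 69.7 and 26.2 CPM in germ-free mice (adjusted p = 0.0749, 0.0428 with the block), and the conventionalized and germ-free ranges overlapped. The gene that rose with the block was Lmnb1, a lamin of the nuclear envelope, named after its values were seen. It was at 63.8 ± 13.4 CPM in conventionalized mice and 32.2 ± 22.4 CPM in germ-free mice (adjusted p = 0.125, 0.045 with the block). Of 15 leukocyte, endothelial and stromal markers 1 was tested, Pecam1, which encodes the gated antigen CD31 and passed the minimum through the germ-free libraries alone, and it fell (4.999 ± 3.34 CPM in conventionalized mice and 19.9 ± 5.69 CPM in germ-free mice, adjusted p = 0.0218). The 15 markers summed to 11.2 to 41.2 CPM in conventionalized mice and 34.8 to 61.2 CPM in germ-free libraries, and their part in the keratin levels was not tested. Ptprc, which encodes the gated antigen CD45, was at 2.60 to 18.7 CPM in conventionalized and 7.08 to 19.5 CPM in germ-free libraries.

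Other cell types were represented as follows. All 13 tested tuft cell genes had negative fold changes (median -0.79), and limma called 0 (unadjusted p under 0.05 for 0), and 2 were lower with array quality weights and 1 without germ-free C. Of 14 stem cell genes 1 rose (Lgr5), and of 15 proliferation genes 6 rose, with medians of 1.28 and 1.56, and 6 and 14 rose with the littermate block. With array quality weights 5 and 13 rose, and without the 2 libraries that stood apart 7 and 10 rose. Leaving out 1 library, 0 to 2 stem cell genes rose, with 0 without conventionalized B, C or D or germ-free A or D, and 0 rose with library size scaling or with no filter. For proliferation genes 0 rose without conventionalized B or C or germ-free A, 1 without conventionalized A or D, 4 without germ-free D, 10 without germ-free C and 11 without germ-free B. Of 10 Paneth cell genes 1 rose (Mptx2), with a median of 0.89. That call was lost with library size scaling, no filter, the minimum of 1 CPM, the pseudocount of 0.1, array quality weights and without any 1 library other than germ-free A. It was also lost without the 2 libraries that stood apart, where the median was 0.32, against 0.15 over all genes. Of 13 goblet cell genes limma called 0 (unadjusted p under 0.05 for 1, higher), the block gave 0, 1 was higher without germ-free B, and 2 were lower without the 2 libraries that stood apart. The 8 pan-epithelial adhesion genes also gave 0 calls by limma, with 1 at an unadjusted p under 0.05. With library size scaling, with the block, without conventionalized D, without germ-free B or without the 2 libraries that stood apart 1 was lower. The gene at an unadjusted p under 0.05, the claudin Cldn4, was at 52.5 ± 37.1 CPM in conventionalized mice and 141 ± 60.2 CPM in germ-free mice (adjusted p = 0.0631, 0.0193 with the block).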

How the data were processed

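Gene expression was measured by RNA sequencing in 8 libraries, for which the authors took 10 ng RNA, SMARTer Ultra Low Input and Nextera XT chemistry and 100 bp single reads, per the labels' protocols. Per the submitters' processing notes, DESeq2 1.12.4, STAR 2.4.2a, Trimmomatic 0.36, R 3.3.1 and the mm10 build were used, and the series text names Salmon and edgeR. As deposited, the table holds signal that had been normalized, and no raw counts: in genes with 1 transcript 99.7 to 99.8% of values above 0 were whole multiples of a step per library (tolerance 0.02), in genes with several transcripts 21.6 to 24.1%. Of 48440 genes, 48058 matched GENCODE M21 (GRCm38) identifiers. CPM values were scaled by TMM (trims 30% and 5%), and 10053 genes reaching 10 CPM in 4 or more libraries entered the test as log2(CPM + 0.5), which understates changes of low genes. The test was limma 3.58.1 in R 4.3.3 (trend, robust, condition only, two-sided, Benjamini-Hochberg over all tested genes, called under 0.05). The labels name the littermate pairs, so the design pairs the animals, and the block is an alternative. Within-pair correlations of deviations from group means were 0.14, -0.16, 0.31 and -0.01 for A to D. The procedure was run on simulated counts, drawn with the same spread setting for every gene, no pair effect and no outlying library. That run does not show how it behaves with normalized signal, pair effects or outlying libraries. Depth is known only for the library, and PCR reads without molecular identifiers are not independent molecules. Named genes were the members, up to 3 genes of lowest p per list, and the 3 nearest genes by profile per member. A gene that this rule names is not reported here. Members, lists and tests were chosen with earlier results of these data known. Other scalings, filters, pseudocounts, weights and left-out libraries were tried.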

Additional observations from a re-analysis of the deposited data

Results flagged for a closer look

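Within a group of 4, chance flags about 1 in 20 groups. The screen covered both groups for each member, each ratio examined and the lists of cell types and proliferation, so some flags are expected by chance. The log2 ratio of Krt23 to Krt8 was -8.00 in the pair A conventionalized library, far from the other 3 (-6.29 to -6.00), and -8.60 in the pair C germ-free library, far from the other 3 (-6.73 to -6.65). The summed goblet cell genes reached 53557 CPM in the pair A conventionalized library. The summed enterocyte genes reached 5988 CPM in the pair A conventionalized library and 4681 CPM in the pair A germ-free library. Each of these libraries lay far from the other 3 of its group.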

How the results depend on the processing

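Krt7, not called in the fit reported, was called with library size scaling (log2 fold change -1.73), upper-quartile scaling (-1.48), no filter on low values (-1.5), the littermate block (-1.5), array quality weights (-1.52) and without conventionalized A and germ-free C (-1.48), an alternative chosen after seeing the data. Under each of these 6 settings 2 members were called in place of 1, and the calls over all genes tested under each are given below. Krt7 was not called with the minimum of 1 CPM (limma adjusted p = 0.0716) or with either other pseudocount. With 1 library left out it was called only without germ-free C. Krt20 kept its call in all settings that used every library. The sign of Krt8 was reversed with library size scaling (-0.079) and without the 2 libraries (-0.20). That of Krt18 was reversed with library size scaling (-0.10), array quality weights (-0.018) and without the 2 libraries (-0.019), and that of Krt19 without the 2 libraries (-0.16). The Krt20 over Krt8 ratio, Krt20 over Krt18 ratio and Krt20 over Krt19 ratio (-1.97, -1.95 and -2.08) had p = 0.125 with the littermate block and, as -1.78, -1.96 and -1.82, p = 0.1 without the 2 libraries, each the smallest exact p possible. With 1 library left out, log2 fold changes ran from -1.70 to -1.21 for Krt7, -0.14 to 0.33 for Krt8, -0.068 to 0.28 for Krt18, -0.092 to 0.47 for Krt19, -2.15 to -1.49 for Krt20 and 0.17 to 0.99 for Krt23, and 0 to 2 members were called. The ratios of Krt20 to Krt8, Krt18 and Krt19 ran from -2.14 to -1.75, -2.23 to -1.69 and -2.25 to -1.84. The highest adjusted exact p in these was 0.0571 for Krt18 (past 0.05 without germ-free A or germ-free C) and 0.0429 for Krt8 and for Krt19. Over all genes 117 of 10053 tested were called higher and 378 lower as reported. Of the same 10053, 765 and 608 were called with weights, and 812 and 505 with the block. Upper-quartile scaling gave 263 and 408 of 10028, and library size scaling 116 and 487 of 10024. With no filter 45 and 311 of 38312 were called, and without the 2 libraries 235 and 407 of 9610. With 1 library left out 14 to 410 of the 9717 to 9997 tested were called higher and 151 to 372 lower. Beyond the construction of each fit, the cause of these changes was not tested. With 4 mice per group the intervals for Krt8, Krt18 and Krt19 reach about 2-fold.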
